A study of Mus musculus with 6 samples.

Results

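Dendritic cells are the antigen-presenting cells that take up foreign material and show it to T cells, and the 8 genes described here mark their main branches: *Siglech* and *Tcf4* for plasmacytoid dendritic cells (pDC), *Zbtb46* for conventional dendritic cells (cDC) as a whole, *Xcr1*, *Clec9a* and *Batf3* for the first conventional subset (cDC1), and *Cd209a* and *Clec10a* for the second subset (cDC2) and for dendritic cells that arise from monocytes. The genes were taken by symbol and matched through their Ensembl identifiers to the read counts of 39179 genes, of which 15980 had enough counts to be tested; all 8 were among these. Whole bone marrow was sequenced from 6 littermate mice. The 3 *MxCDX2* mice (*RsCDX2::Mx1Cre*) carried the human *CDX2* coding sequence at the *Rosa26* locus behind a loxP-flanked stop, together with a *Cre* driven by the interferon-inducible *Mx1* promoter. The 3 control mice each had a different genotype, namely *RsCDX2* alone (control 1), *Mx1Cre* alone (control 2) and wild type (control 3). All 6 mice, aged 3 months, received 3 injections of poly(I:C), a double-stranded RNA mimic that induces interferon, at 10 µg/g, and were analyzed 6 weeks later. The *Mx1* promoter responds to interferon in many cell types and is not particular to dendritic cells or to any blood lineage.

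Plasmacytoid cells depend on the E protein TCF4 and release type I interferon when they sense nucleic acids. Conventional cells express *Zbtb46*; their cDC1 subset needs IRF8 and BATF3 and takes up dead cells, and their cDC2 subset relies on IRF4, KLF4 or Notch signals. Growth of all these cells from marrow progenitors depends on the receptor FLT3, and the Id proteins, which block E proteins, favor the conventional over the plasmacytoid branch. Only a small share of marrow cells is dendritic, and several of the 8 genes are also used outside this lineage.

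Between 38646101 and 49899650 reads per mouse were assigned to genes. *Cdx2*, the induced gene, had 4, 0 and 0 reads in the controls and 152, 155 and 183 reads in the *MxCDX2* mice, counted on the mouse gene although the transgene is human. Across all genes the first principal component (60.5% of the variance) separated the groups and the second (15.6%) set the wild-type control apart from the other mice. That mouse was the highest control for 7 of the 8 dendritic genes, *Zbtb46* being the exception, and stood at least 2 times above the mean of the other controls for 5 of them, with a median ratio of 2.53 and a range from 0.901 to 7.16. Among the 11982 tested genes whose mean reached 100 normalized counts (reads scaled to a common library size), the wild-type mouse was the highest control for 37.7% and reached a ratio of 2 for 7.59%, with a median of 0.968. *Xcr1* and *Batf3*, at ratios of 7.16 and 4.6, did not reach that mean. Over all 15980 genes tested, the wild-type mouse was the highest control for 41.2%. It was the highest control for 10 of 10 macrophage markers, 8 of 8 endothelial markers and 6 of 6 T and NK cell markers. Among B cell markers it was the highest control for 0 of 10. Since it was the only wild-type animal, its genotype and the individual mouse cannot be told apart. The fold changes of the 8 genes and the counts and medians of the dendritic lists are therefore given with and without it, and single genes of the lists where it moved them most.

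Of the 8 genes, *Siglech* and *Zbtb46* were called lower in *MxCDX2* marrow, 4.59-fold and 5.59-fold, and none was called higher. A gene was called when its log2 fold change exceeded 1 in size at an adjusted p below 0.05 in edgeR's quasi-likelihood test, and by that rule 13.6% of all tested genes were called, 4.59% higher and 9.03% lower. Although none of the 8 was called higher by edgeR or by DESeq2, 2 of them, *Tcf4* and *Cd209a*, were higher at an unadjusted p below 0.05. The median log2 fold change of the 8 genes was -0.04, next to 0.00 over all genes tested. Without the wild-type control, 4 of the 8 were called, *Siglech* and *Zbtb46* lower and *Tcf4* and *Clec9a* higher, at a background of 14.9% of genes called, and the median of the 8 became 0.87. The groups of mice did not overlap for *Siglech* and *Zbtb46* and overlapped for the other 6 genes, while 42.1% of all genes tested did not overlap. In bulk marrow RNA, fewer cells of a type and less RNA per cell cannot be told apart.

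**Figure D1:**
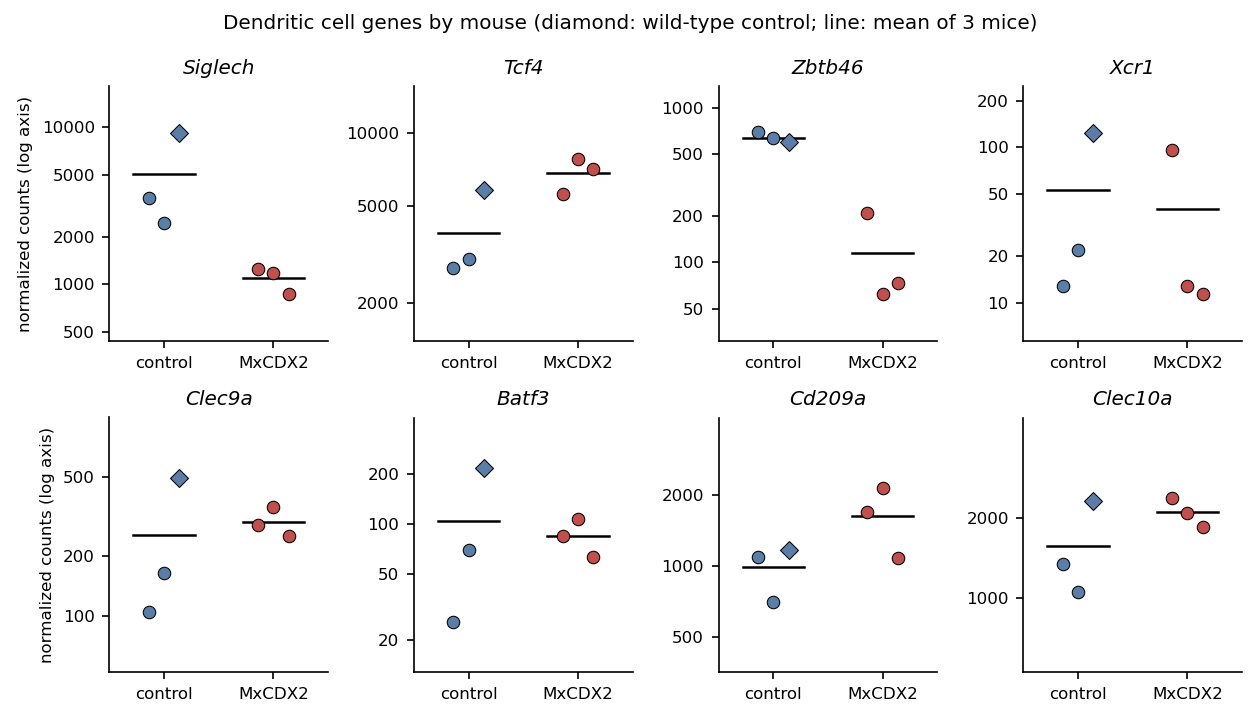
Normalized counts of the 8 dendritic cell genes in each mouse on a log axis (circles and diamonds: mice, the diamond being the wild-type control; line: mean of 3 mice). The *MxCDX2* mice lie below every control for *Siglech* and *Zbtb46*, and the wild-type mouse is the highest control in every panel but *Zbtb46*.

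*Siglech* (ENSMUSG00000051504, GRCm38 chr7:55768178-55778925, plus strand) encodes a sialic acid-binding lectin that is the standard surface marker of mouse pDC and is also found on some macrophages. Its normalized counts were 3541.0, 2448.7 and 9159.7 in controls 1 to 3 and 1254.2, 1179.5 and 871.4 in the *MxCDX2* mice. The lowest control was above the highest *MxCDX2* mouse, and the wild-type control was far above the other two controls. The means were 5049.8 ± 3601.0 and 1101.7 ± 202.9 (SD, n = 3 each), and the log2 fold change was -2.20 (SE 0.49, 95% interval -3.37 to -1.02, adjusted p = 0.023). *Siglech* stayed called without the wild-type control, with a smaller change of -1.42 (adjusted p = 0.00904), but the call was lost when any of the *MxCDX2* mice 1, 2 or 3 was left out (adjusted p = 0.0585, 0.0754 and 0.091). An exact permutation test of 3 against 3 mice cannot go below a two-sided p of 0.10, which is the value *Siglech* reached. Of 10 macrophage markers 6 were called lower and 0 higher, with 1 higher at an unadjusted p below 0.05; without the wild-type control 5 were called lower and 1, *Adgre1*, which encodes the macrophage antigen F4/80, higher. *Adgre1*, named after its values were seen, had 2664.4, 2847.8 and 5206.7 normalized counts in the controls and 5533.9, 6281.6 and 6275.5 in the *MxCDX2* mice. Its log2 fold change was 0.75 (adjusted p = 0.085), or 1.15 (adjusted p = 0.00258) without the wild-type control, opposite in sign to *Siglech*. The 6 markers called lower had the sign of *Siglech*: *Cd5l* (log2 fold change -3.47), *Spic* (-3.20), *Mertk* (-2.57), *C1qa* (-2.26), *C1qc* (-2.08) and *Vcam1* (-2.04). The summed level of the list ranged from 566.2 to 1607.0 CPM (counts in every 1000000 reads) in controls and from 306.9 to 418.9 in *MxCDX2* mice, with no marker at 0. The part of macrophages in the *Siglech* result was not tested.

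*Tcf4* (ENSMUSG00000053477, chr18:69343356-69689079, plus strand) encodes the E protein on which pDC identity depends, and it is also expressed in B lineage cells. Its normalized counts were 2785.8, 3014.7 and 5802.9 in the controls and 5614.4, 7766.8 and 7099.9 in the *MxCDX2* mice. The wild-type control lay just above the lowest *MxCDX2* mouse, so the groups overlapped, whereas both other controls lay below every *MxCDX2* mouse. The means were 3867.8 ± 1679.8 and 6827.0 ± 1101.8, and the log2 fold change of 0.82 (SE 0.30, 95% interval 0.11 to 1.53) had an adjusted p of 0.0978. Without the wild-type control, *Tcf4* was called higher at 1.25 (adjusted p = 0.00597). DESeq2 gave an adjusted p of 0.0495 with all mice, still under the fold threshold. The most used pDC surface marker and the factor that governs the same cells thus had fold changes of opposite sign.

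*Zbtb46* (ENSMUSG00000027583, chr2:181387762-181459426, minus strand) encodes a zinc finger repressor that distinguishes cDC and their committed precursors from other myeloid cells, and it is also expressed in endothelial cells and erythroid progenitors. Its normalized counts were 690.0, 631.5 and 595.3 in the controls and 208.7, 61.72 and 73.12 in the *MxCDX2* mice. The controls were close to each other and all of them lay above the highest *MxCDX2* mouse, *MxCDX2* 1. The means were 639.0 ± 47.79 and 114.5 ± 81.76, with a log2 fold change of -2.48 (SE 0.49, 95% interval -3.64 to -1.32, adjusted p = 0.0149). Leaving out the wild-type control gave -2.52 (adjusted p = 0.0225), and the call was lost only without *MxCDX2* 3 (adjusted p = 0.0604). All 8 erythroid markers were called lower as well, and their summed level, 18033.6 to 20010.4 CPM in controls, was between 554.9 and 2248.3 CPM in *MxCDX2* mice, the highest being again *MxCDX2* 1. Of the endothelial markers 3 of 8 were called lower (1 without the wild-type control), with sums from 128.5 to 287 CPM in controls and from 130.6 to 153.9 CPM in *MxCDX2* mice; no erythroid or endothelial marker was at 0. The part of either cell type in the *Zbtb46* result was not tested.

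The promoters of these 2 called genes are shown because both hold the E-box CACCTG, a sequence of the kind that E proteins such as TCF4 bind, and TTTATG, a sequence of the kind that CDX proteins bind. The 300 bases run 5′ to 3′ on each gene's own strand, from 250 before to 50 after the RefSeq start site (GRCm38.p6), at chr7:55767934-55768233 (plus) and chr2:181424339-181424638 (minus), the latter at a start site inside the gene as given above. Capitals mark the CACCTG and TTTATG sequences. In *Zbtb46* the bases just before that start site form a pyrimidine-rich run ending in CAG, the form of a splice acceptor. The 2 marked sequences of *Zbtb46* may therefore lie in an intron rather than a promoter. Whether transcription starts there was not tested.
Siglech: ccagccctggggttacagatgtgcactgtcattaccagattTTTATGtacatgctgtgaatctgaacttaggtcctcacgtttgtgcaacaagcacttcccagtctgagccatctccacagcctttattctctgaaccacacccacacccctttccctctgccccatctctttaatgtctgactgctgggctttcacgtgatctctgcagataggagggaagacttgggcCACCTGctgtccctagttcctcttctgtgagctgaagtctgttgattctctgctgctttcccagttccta
Zbtb46: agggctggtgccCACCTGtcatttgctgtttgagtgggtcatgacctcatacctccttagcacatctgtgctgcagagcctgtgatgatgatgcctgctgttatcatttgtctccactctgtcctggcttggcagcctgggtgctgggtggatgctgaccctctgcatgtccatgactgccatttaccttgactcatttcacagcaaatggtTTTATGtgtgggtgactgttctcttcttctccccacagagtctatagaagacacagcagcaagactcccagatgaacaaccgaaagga
In *Siglech* the CACCTG begins at -20 and the TTTATG at -209 from the start site, and in *Zbtb46* they begin at -238 and -38. Neither sequence, read on both strands as CACCTG or CAGGTG and as TTTATG or CATAAA, was found in the windows of *Xcr1*, *Clec9a*, *Batf3* or *Cd209a*; *Tcf4* and *Clec10a* had no window. Of 32851 RefSeq promoters of the same length, 20.2% held the CACCTG sequence, 11.9% the TTTATG sequence and 2.12% both. The general E-box CANNTG, which includes CACCTG, was in all 6 windows and in 72.3% of all promoters. Other forms of the CDX site were not searched, so windows without TTTATG or CATAAA may still hold one. These matches describe letters only, since binding was not measured.

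None of the cDC1 genes was called in the comparison of all 6 mice, and each varied more among the controls than between the groups. *Xcr1* (ENSMUSG00000060509, chr9:123852315-123862029, minus strand), the receptor for the chemokine XCL1 that cDC1 use to meet T and NK cells, had only 10, 22 and 136 reads in the controls and 90, 13 and 13 in the *MxCDX2* mice. A single mouse in each group, the wild-type control and *MxCDX2* 1, held most of its reads. The log2 fold change of -0.43 had a 95% interval from -3.09 to 2.23 (adjusted p = 0.819), an interval that holds changes of several fold in either direction. Without the wild-type control it was 1.18 (adjusted p = 0.467).

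*Clec9a* (ENSMUSG00000046080, chr6:129408862-129424763, plus strand), a lectin that recognizes actin filaments exposed by dead cells, had normalized counts of 104.8, 164.8 and 497.8 in the controls and 286.0, 354.6 and 254.2 in the *MxCDX2* mice. The wild-type control was the highest of all mice and the other controls were the lowest. The log2 fold change was 0.22 (SE 0.56, 95% interval -1.12 to 1.56, adjusted p = 0.817), and without the wild-type control *Clec9a* was called higher at 1.16 (adjusted p = 0.0392). The gene shares 184 exonic bases with *Clec1b*, a lectin gene of megakaryocytes on the same strand, so reads there may have been left uncounted as ambiguous. *Clec1b* itself had 1174.4, 623.6 and 6798.5 normalized counts in the controls and 412.1, 214.5 and 589.3 in the *MxCDX2* mice. Its log2 fold change was -2.82 (adjusted p = 0.0741) with all mice and -1.13 (adjusted p = 0.126) without the wild-type control.

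*Batf3* (ENSMUSG00000026630, chr1:191097847-191108945, plus strand), a leucine zipper factor needed for cDC1 development, had normalized counts of 25.56, 69.51 and 218.8 in the controls and 84.75, 106.8 and 63.55 in the *MxCDX2* mice. Every *MxCDX2* mouse lay between the lowest and the highest control. The log2 fold change was -0.31 (SE 0.72, 95% interval -2.01 to 1.40, adjusted p = 0.798), or 0.84 (adjusted p = 0.274) without the wild-type control.

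*Cd209a* (ENSMUSG00000031494, chr8:3743397-3748984, minus strand) is a mouse relative of the human lectin DC-SIGN, carried by cDC2 and monocyte-derived dendritic cells. Its normalized counts were 1088.7, 705.0 and 1166.0 in the controls and 1689.6, 2135.7 and 1083.8 in the *MxCDX2* mice. *MxCDX2* 3 was within the range of the controls and the other *MxCDX2* mice were above it. The log2 fold change was 0.73 (SE 0.30, 95% interval 0.03 to 1.43, adjusted p = 0.127), and 0.89 (adjusted p = 0.109) without the wild-type control.

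*Clec10a* (ENSMUSG00000000318, chr11:70156197-70170834, plus strand) encodes the galactose-binding lectin MGL1 of macrophages and dendritic cells. Its normalized counts were 1332.8, 1046.6 and 2310.2 in the controls and 2380.3, 2084.7 and 1851.6 in the *MxCDX2* mice. The wild-type control fell within the *MxCDX2* range and the other controls lay below it. The log2 fold change was 0.43 (SE 0.29, 95% interval -0.27 to 1.12, adjusted p = 0.342), and without the wild-type control 0.84 (adjusted p = 0.0169), below the fold threshold. Monocyte markers stood higher in the same mice: 5 of 10 were called higher and 0 lower (5 and 1 without the wild-type control), and their summed level was between 1229.3 and 2183.7 CPM in controls and between 6574.1 and 7636.9 CPM in *MxCDX2* mice, with no marker at 0. Whether monocytes contribute to the values of *Tcf4*, *Cd209a* or *Clec10a* was not tested.

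**Figure D2:**
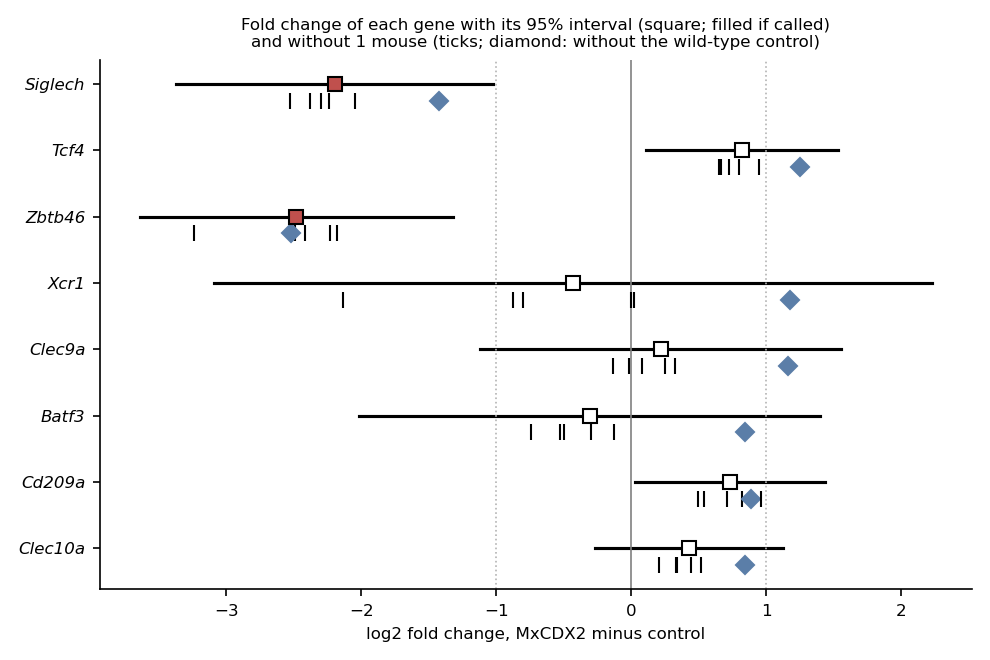
Log2 fold change of each of the 8 genes, *MxCDX2* minus control (square with its 95% interval, filled where called), with the values obtained when 1 mouse was left out beneath it (ticks; diamond: without the wild-type control). Leaving out the wild-type control moved every gene except *Zbtb46* upward, and turned *Xcr1* and *Batf3* from negative to positive.

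Expressed per length, as reads per kilobase of exon in every 1000000 reads (RPKM), the order of the 8 genes differed between the groups. In the controls *Siglech* had the highest mean level (32.8 ± 23.4 RPKM, SD, n = 3), followed by *Cd209a* (13.7 ± 3.43), *Clec10a* (11.9 ± 5.03), *Tcf4* (3.11 ± 1.35), *Clec9a* (1.71 ± 1.41), *Zbtb46* (1.65 ± 0.124), *Batf3* (1.44 ± 1.39) and *Xcr1* (0.261 ± 0.305). In the *MxCDX2* mice *Cd209a* came first (22.7 ± 7.33 RPKM), before *Clec10a* (16.0 ± 2.01), *Siglech* (7.16 ± 1.32), *Tcf4* (5.48 ± 0.885), *Clec9a* (1.99 ± 0.343), *Batf3* (1.17 ± 0.298), *Zbtb46* (0.296 ± 0.211) and *Xcr1* (0.197 ± 0.238). Among neighbors in this order, only *Clec10a* and *Tcf4* lay apart in the controls by more than their SDs together. In the *MxCDX2* mice the neighbors that did not lie apart in this way were *Cd209a* and *Clec10a*, *Siglech* and *Tcf4*, and *Zbtb46* and *Xcr1*. The level of *Tcf4* is spread over 27382 exonic bases of many transcripts, which lowers its value per kilobase.

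Ratios between counts of 2 genes in the same mouse do not depend on library scaling; these were chosen after the values were seen, and none can pass an exact permutation p of 0.10. There were 1.27, 0.812 and 1.58 *Siglech* reads for each *Tcf4* read in the controls and 0.223, 0.152 and 0.123 in the *MxCDX2* mice, the wild-type control included in the separation. *Siglech* reads per *Clec9a* read numbered 33.8, 14.9 and 18.4 in the controls and 4.39, 3.33 and 3.43 in the *MxCDX2* mice. Both ratios of the pDC marker separated the groups without overlap (exact permutation test, two-sided p = 0.10 each, n = 3 per group). *Siglech* itself was lower without overlap, which alone lowers both ratios. The ratio of *Siglech* to *Zbtb46*, both called lower, overlapped between the groups (exact permutation p = 0.40), as did that of *Xcr1* to *Clec9a* (exact permutation p = 0.40).

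The lectins of the cDC2 set differed in direction from 2 relatives, picked for the ratios after their values were seen. *Mgl2*, the neighboring paralog of *Clec10a* that marks a cDC2 subset, had 1145.0, 675.2 and 276.2 normalized counts in the controls and 252.1, 71.52 and 97.50 in the *MxCDX2* mice, and was called lower (log2 fold change -2.32, adjusted p = 0.0498). *Cd209d*, a paralog of *Cd209a*, had 313.1, 191.6 and 620.9 in the controls and 108.1, 78.37 and 52.23 in the *MxCDX2* mice (-2.24, adjusted p = 0.0234). *Clec10a* reads per *Mgl2* read went from 1.16, 1.55 and 8.36 to 9.44, 29.2 and 19, and *Cd209a* reads per *Cd209d* read from 3.48, 3.68 and 1.88 to 15.6, 27.2 and 20.8. Every *MxCDX2* mouse was above every control in both ratios (exact permutation test, two-sided p = 0.10 each, n = 3 per group), the wild-type mouse coming close for *Clec10a* over *Mgl2*. Both *Mgl2* and *Cd209d* were called lower, which alone raises the ratios. Another relative, *Cd209f*, was called lower, with 0, 0 and 1 reads in the *MxCDX2* mice against 23.0, 154.9 and 37.38 normalized counts in the controls. *Cd209c* (-1.55, adjusted p = 0.0815) and *Cd209e* (-1.26, adjusted p = 0.117) were not called by edgeR, and *Cd209b* and *Cd209g* had too few counts to be tested. Reads from such similar genes may be divided or dropped in counting, so the values of the Cd209 and MGL genes carry that uncertainty.

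**Figure D3:**
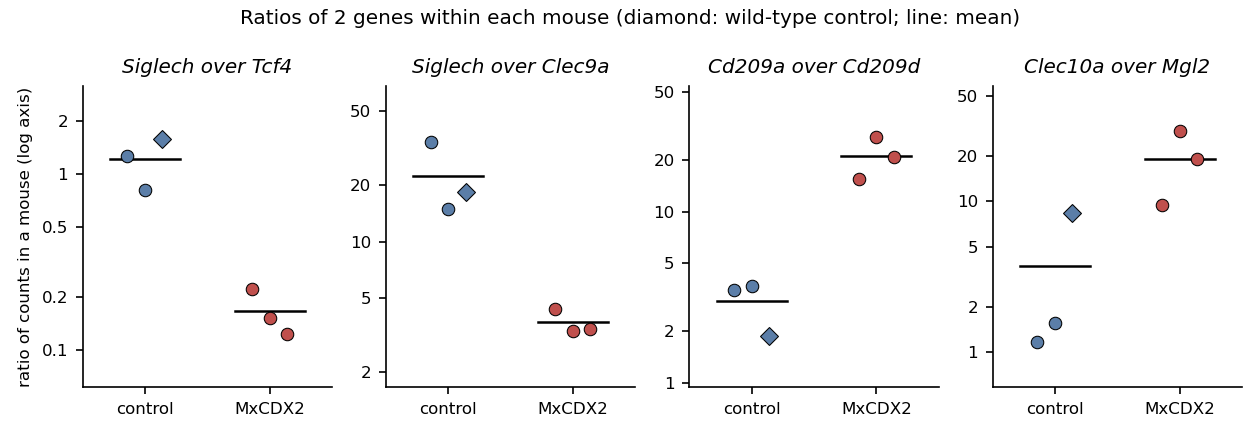
Ratio of the counts of 2 genes within each mouse on a log axis (circles and diamonds: mice, the diamond being the wild-type control; line: mean of 3 mice). The groups do not overlap in any of the 4 panels, which show ratios chosen after their values were seen. The 2 ratios of *Siglech* are lower and those of *Cd209a* and *Clec10a* to a relative higher in *MxCDX2* mice. *Siglech* over *Zbtb46* and *Xcr1* over *Clec9a*, which overlap, are not drawn. Neither is *Clec9a* over *Clec1b*, which does not overlap and is higher in *MxCDX2* mice.

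Further genes of each branch were examined as lists, chosen with earlier results of these data known. Over all genes tested, 9.03% were called lower and 4.59% higher. Of 20 other pDC genes, 7 were called lower and 4 higher, with a median log2 fold change of -0.57. Without the wild-type control the counts were again 7 and 4, but the median was -0.12. The lower genes included *Klk1*, a kallikrein protease (-2.79, adjusted p = 0.00575), *Cox6a2*, a respiratory chain subunit (-2.45, adjusted p = 0.0159), *Pacsin1*, an endocytic adaptor (-2.36, adjusted p = 0.0426, or -1.29, adjusted p = 0.0303, without the wild-type control), and *Atp1b1*, a sodium pump subunit (-1.57, adjusted p = 0.0183). They also included 3 genes that B lineage cells share with pDC: *Ly6d* (-2.04, adjusted p = 0.0332), *Spib* (-1.98, adjusted p = 0.0315) and *Bcl11a* (-1.79, adjusted p = 0.00212). B cell markers themselves were called lower in 5 of 10 cases (8 without the wild-type control), with summed levels from 469.1 to 1375.1 CPM in controls and from 114.4 to 395.6 CPM in *MxCDX2* mice, none at 0; their part in these values was not tested. The 4 higher genes were *Pld4*, an endosomal nuclease that monocytes and macrophages also express (2.36, adjusted p = 0.00163), *Zeb2*, a repressor used by pDC and monocytes (1.25, adjusted p = 0.0131), *Cbfa2t3*, a corepressor (1.07, adjusted p = 0.00344), and *Tlr9*, the sensor of unmethylated DNA (1.04, adjusted p = 0.0251). *Bst2* (-0.32, adjusted p = 0.661), *Irf7* (-0.04, adjusted p = 0.946) and *Runx2* (-0.52, adjusted p = 0.30), which are a surface marker and 2 transcription factors of pDC, were not called. Without the wild-type control their log2 fold changes were 0.49 (adjusted p = 0.0113), 0.37 (adjusted p = 0.393) and -0.03 (adjusted p = 0.90), again not called. Of the 9 genes not called, *Ccr9* had the lowest change (-1.97, adjusted p = 0.0552) and *Tlr7* the highest (0.20, adjusted p = 0.595). The groups did not overlap for *Ccr9*, and DESeq2 called it lower (adjusted p = 0.00247). Without the wild-type control the edgeR change of *Ccr9* was -1.06 (adjusted p = 0.0587).

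In the 14 other cDC1 genes, 3 were called lower and 2 higher (median -0.47), and without the wild-type control 4 were called lower and 2 higher with a median of 0.03, so that the negative median rested on that mouse. *Irf8*, the transcription factor that directs both cDC1 and monocyte development, rose from 8706.1, 12779.5 and 17749.7 normalized counts to 22646.3, 37140.2 and 28423.1, a log2 fold change of 1.17 (adjusted p = 0.0354). *Naaa*, a lysosomal amidase, also rose (2.11, adjusted p = 0.000879). The genes that fell were *Snx22*, a sorting nexin (-3.29, adjusted p = 0.0047), *Cadm1*, a cell adhesion molecule (-1.67, adjusted p = 0.0278), and *Ly75*, the endocytic receptor DEC-205 (-1.38, adjusted p = 0.00539). *Id2*, the E protein inhibitor required for cDC1, had a log2 fold change of -0.58 (adjusted p = 0.111).

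The 14 other cDC2 genes held 3 called lower and 2 called higher (median -0.58, or -0.62 with the same counts without the wild-type control). *Klf4*, a zinc finger factor of cDC2 and monocytes, rose with a log2 fold change of 2.05 (adjusted p = 0.0211) and *Clec12a*, an inhibitory myeloid lectin, with 1.23 (adjusted p = 0.0122). Besides *Mgl2*, the genes that fell were *Esam*, an adhesion molecule of Notch-dependent cDC2 that endothelial cells also carry (-2.96, adjusted p = 0.0472), and *Dtx1*, a Notch target (-2.54, adjusted p = 0.00613). In *Esam* the wild-type control, at 3230.1 normalized counts, was far above the other controls at 535.4 and 425.0, and without it the log2 fold change was -1.40 (adjusted p = 0.0208). *Irf4*, the factor linked to cDC2, was not called (-0.19, adjusted p = 0.83).

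Growth factor receptors and genes shared by dendritic cells were called in both directions, 3 lower and 3 higher of 17 tested (median 0.10), and 2 lower and 3 higher without the wild-type control (median 0.09). *Csf1r*, the receptor of the macrophage growth factor (2.08, adjusted p = 0.00196), *Cd80*, a costimulatory ligand (1.69, adjusted p = 0.0172), and *Cst3*, a protease inhibitor just past the fold threshold (1.00, adjusted p = 0.0164), rose. The genes that fell were *Ccr7*, the receptor that guides dendritic cells to lymph nodes (-2.40, adjusted p = 0.0176), *Cd24a* (-1.49, adjusted p = 0.00343) and *Cd86*, another costimulatory ligand (-1.45, adjusted p = 0.0392). *Flt3* had 1304.7, 1242.2 and 3767.1 normalized counts in the controls and 1081.6, 841.5 and 1024.6 in the *MxCDX2* mice (-1.10, adjusted p = 0.126), and *Itgax*, the CD11c integrin, had a log2 fold change of -1.05 (adjusted p = 0.0773). Neither was called by edgeR, and without the wild-type control, the highest mouse in both, the changes were -0.36 (adjusted p = 0.118) and -0.52 (adjusted p = 0.0851). With all mice DESeq2 called *Itgax* lower (-1.04, adjusted p = 0.024) but not *Flt3* (-1.09, adjusted p = 0.0574).

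Among the 6 E protein and Id genes, the list to which *Tcf4* and its inhibitors belong by function, *Id3* (-1.83, adjusted p = 0.0163) and *Tcf3*, encoding the E protein E2A and just past the fold threshold (-1.02, adjusted p = 0.0137), fell and none was called higher by edgeR, with 1 higher at an unadjusted p below 0.05. The median of the list was -0.80, and without the wild-type control it was -0.63 with the same counts. *Tcf12*, the remaining E protein, had a log2 fold change of -0.04 (adjusted p = 0.843). The 3 E protein genes *Tcf4*, *Tcf3* and *Tcf12* therefore had changes of 0.82, -1.02 and -0.04.

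Of the 21 tested relatives of the 8 genes by sequence family, 5 were called in each direction (median -0.57), and 6 lower and 5 higher without the wild-type control (median -0.83). DESeq2, which tested 23, called 11 lower and 6 higher. Besides the MGL and Cd209 genes, *Siglece*, an inhibitory sialic acid-binding lectin of myeloid cells (-1.95, adjusted p = 0.00101), and *Cd22*, its B cell relative (-1.30, adjusted p = 0.00883), were lower. *Mag*, a further member of the Siglec family (2.17, adjusted p = 0.00156), *Clec7a*, the beta-glucan receptor Dectin-1 (2.27, adjusted p = 0.00299), *Clec12b* (2.21, adjusted p = 0.0178) and *Batf2* (2.45, adjusted p = 0.0417) were higher. *Clec12b* rested on few reads, 4, 3 and 3 in the controls and 20, 12 and 20 in the *MxCDX2* mice. Of the 6 fits that left out 1 mouse, *Clec12b* kept its call in 3 and *Batf2* in 1. *Batf*, the other relative of *Batf3*, had a change of 0.89 (adjusted p = 0.0268), below the fold threshold.

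Counting each gene of these lists once, 89 were tested, of which 22 were called lower and 15 higher, with a median log2 fold change of -0.51. The shares over all genes tested were 9.03% lower and 4.59% higher. Without the wild-type control, 23 were called lower and 15 higher, with a median of -0.18, and of the 37 genes called with all mice only *Cd86* was no longer called. Whichever of the 6 mice was left out, 17 of the 37 were called: *Klk1*, *Bcl11a*, *Id3*, *Snx22*, *Ly75*, *Dtx1*, *Cd24a*, *Siglece* and *Cd22* lower, and *Pld4*, *Cbfa2t3*, *Zeb2*, *Naaa*, *Clec12a*, *Csf1r*, *Clec7a* and *Mag* higher. The other 20, among them *Irf8*, *Spib*, *Klf4*, *Mgl2* and *Cd209d*, lost their call without at least 1 mouse, and without *MxCDX2* 3 only 17 list genes in all were called. Without *MxCDX2* 3 the genes called numbered 5 instead of 11 in the pDC list, 3 instead of 5 in the cDC1 list, 2 instead of 5 in the cDC2 list, 2 instead of 6 in the shared list, 1 instead of 2 in the E protein and Id list and 5 instead of 10 among the relatives. Without *MxCDX2* 2 they numbered 7 in the pDC list, 3 in the cDC1 list, 2 in the cDC2 list and 1 in the E protein and Id list, and the cDC1 list had 3 without control 1 and the E protein and Id list 1 without control 2.

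**Figure D4:**
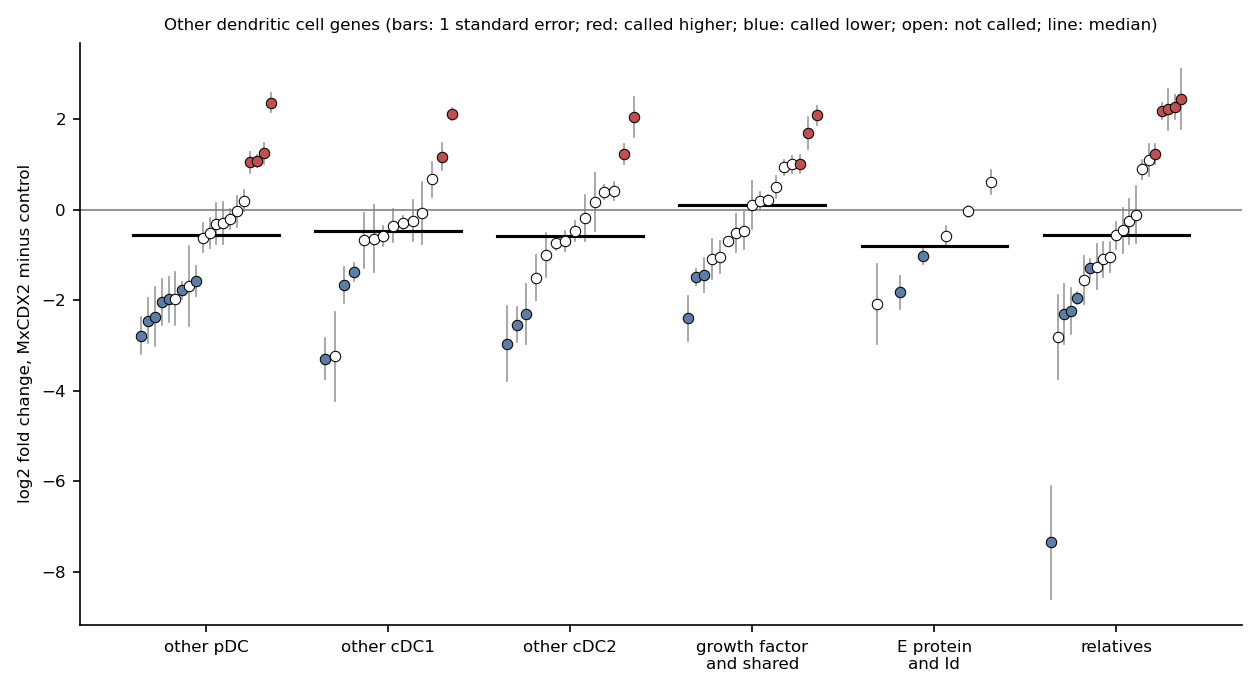
Log2 fold change, *MxCDX2* minus control, of the other dendritic cell genes by list (circles; bars: 1 standard error; red: called higher; blue: called lower; open: not called; line: median of the list). Every list except the E protein and Id genes holds genes called in both directions, and the lowest point, *Cd209f*, rests on 1 read in the *MxCDX2* mice.

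The mean log2 level of each list in each mouse, set relative to its mean over the 6 mice, showed the wild-type control at 1.05 for the 8 dendritic genes, where the other controls were at -0.39 and -0.23 and the *MxCDX2* mice at 0.26, -0.17 and -0.52. For the other pDC genes it was at 0.86 against -0.02 and 0.16 in the other controls, and for the other cDC1 genes at 0.70 against 0.00 and 0.08. It did not stand out for the other cDC2 genes, at 0.14 against 0.18 and 0.42. The same mouse was at 1.81 for macrophage markers, 1.48 for endothelial markers, 1.40 for T and NK cell markers and 1.36 for stromal markers. Of the marker lists not yet described, neutrophil markers were called lower in 3 of 8 cases (6 without the wild-type control), T and NK cell markers in 2 of 6 (again 2) and stromal markers in 1 of 7 (a call lost without that mouse), and none in these 3 lists was called higher by edgeR or had a higher level at an unadjusted p below 0.05.

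**Figure D5:**
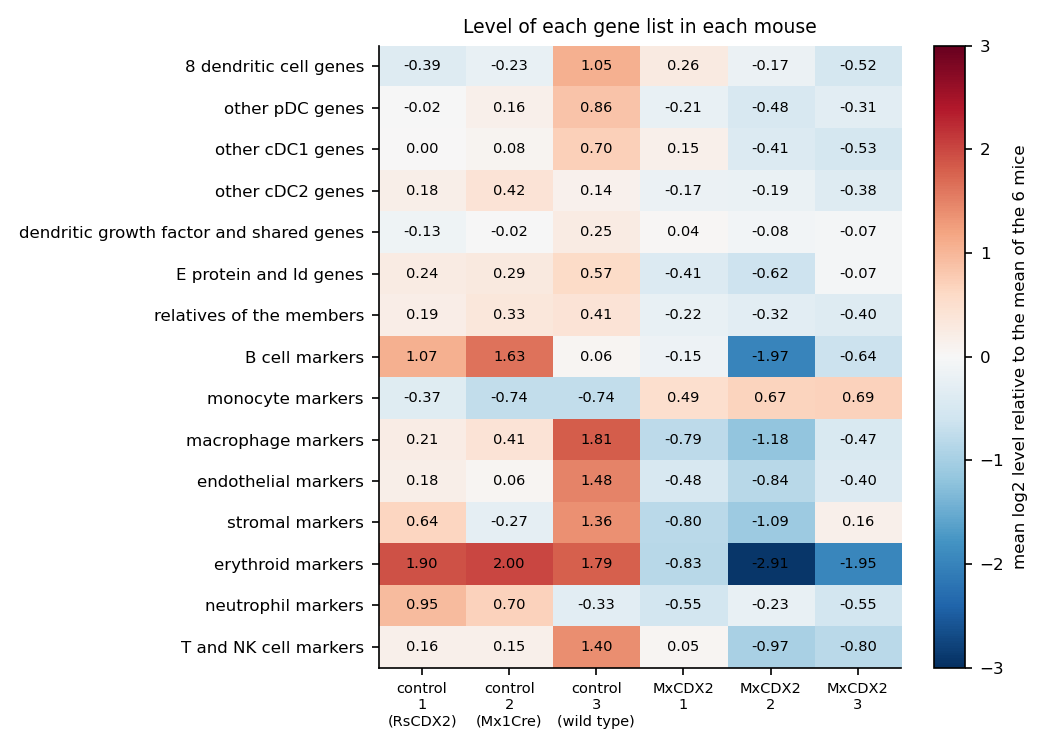
Mean log2 level of each gene list in each mouse relative to the mean of the 6 mice (columns: mice; rows: lists; red above and blue below the mean). Control 3, the wild-type mouse, is highest for the 8 dendritic genes (1.05) and for macrophage markers (1.81), and monocyte markers are above the mean in every *MxCDX2* mouse (0.49 to 0.69).

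Genes whose normalized counts followed each member most closely over the 6 mice were listed as a description. All share the same libraries, and a group difference alone, or 1 mouse far from the rest, gives a high correlation. The wild-type control was such a mouse for *Adcy5*, *Tpm2* and *Oasl2*, at 1839.8, 5467.4 and 4171.9 normalized counts. The other controls were at 272.2 and 205.5 for *Adcy5*, 819.1 and 555.1 for *Tpm2*, and 802.5 and 1145.9 for *Oasl2*. The closest to *Siglech* were *Adcy5* (Pearson r = 0.996, n = 6), *Tpm2* (0.994) and *Tango2* (0.993). For *Zbtb46* they were *Stac2* (r = 0.999), *Rell1* (0.999) and *Sec14l2* (0.999), and for *Tcf4* they were *Ppp2r3a* (0.995), *Ehd4* (0.995) and *Acacb* (0.995). *Clec9a* was followed by *Oasl2* (0.996), *Ebpl* (0.991) and *Plekhj1* (0.990), *Cd209a* by *Gm12183* (0.960) and *Nmnat1* (0.960), and *Clec10a* by *Rpl31* (0.983), *P2ry1* (0.983) and *Nrip2* (0.982). Within the set, where the same limits hold, *Tcf4* followed *Clec10a* (r = 0.825) and *Clec9a* (0.823) and ran opposite to *Zbtb46* (-0.829). *Siglech* and *Tcf4* had r = -0.411.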

How the data were processed

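Libraries were prepared from total RNA with a stranded poly(A) kit. Per the labels and the methods, the authors used bcl2fastq 2.17.1.14, STAR 2.5 on GRCm38 and HTSeq 0.6.1, and deposited 1 table of raw read counts per gene for each mouse; the strand setting of the counting is not given in the sources used here. HTSeq's rows for reads without a feature (9.22 to 14.064% of all counted reads) or with an ambiguous one (2.986 to 3.162%) were left out. Gene names and exon lengths came from GENCODE M21 (37607 identifiers matched). Of the genes, 25488 had a count in any mouse. Same-group mice differed by more than sampling noise, so none was counted as a duplicate.

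Counts were fitted in edgeR 4.0.16 (R 4.3.3; filterByExpr, TMM, quasi-likelihood test, Benjamini-Hochberg adjustment), with 3 mice per group and no covariate. Although the methods used DESeq2, it served here as an alternative (1.42.0), as did limma voom (3.58.1). RPKM and CPM were computed from the counts with TMM-adjusted totals. The code was tested on simulated data. The 8 genes and the lists were chosen with earlier results of these data known. Genes named are the 8 members, list genes past both thresholds, a set of the best known genes whatever their result, and the 3 genes most correlated with each member of at least 100 normalized counts, of which 1 is not reported here; a few others named beside them, and the ratios, were chosen after their values were seen.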

Additional observations from a re-analysis of the deposited data

How the results depend on the processing

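Siglech and Zbtb46 were called lower in edgeR with either TMM, DESeq2 size factors or library totals, under filters of 1 or 10 counts, and in DESeq2 and limma voom. Neither passed glmTreat in edgeR, which asks for a change beyond 1 on the log2 scale (0 of the 8 genes called, 2 at an unadjusted p below 0.05) nor an adjusted p below 0.01 in edgeR's quasi-likelihood test (0 called, 4 at an unadjusted p below 0.05), and DESeq2 and limma voom each called 2. Leaving out 1 mouse at a time gave 0 to 4 called of the 8, the 0 without MxCDX2 3 (3 at an unadjusted p below 0.05) and the 4 without the wild-type control; without MxCDX2 1 or MxCDX2 2 it was 1. With library totals alone the median log2 fold change of all genes moved from 0.00 to 0.12, and Tcf3 was no longer called. Over all genes, 2177 were called with all mice, 611 by glmTreat, 1043 at an adjusted p below 0.01 and 1205 to 2406 with 1 mouse left out. DESeq2 called 2900 and limma voom 2062. Of the list genes 37 were called, with 11 by glmTreat, 15 at an adjusted p below 0.01 and 17 to 38 with 1 mouse left out. DESeq2 called 49 list genes, 32 lower and 17 higher, and limma voom 34. The log2 fold change of Xcr1, -0.43, became 1.18 without control 3 and 0.02 without MxCDX2 3 (range -2.13 to 1.18). That of Clec9a, 0.22, became -0.14 without control 1 and -0.02 without control 2 (range -0.14 to 1.16), and that of Batf3, -0.31, became 0.84 without control 3 (range -0.74 to 0.84) and 0.10 in limma voom. Apart from having fewer mice or a stricter threshold, the cause was not tested. No paired analysis was possible because the control labels carry only serial sample numbers, which run on into the MxCDX2 mice. The 95% interval of Xcr1 was the widest of the 8.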
